A study of Mus musculus with 12 samples.

Results

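The 48 genes described here are the cytosolic ribosomal protein genes that the MOE430A array, a microarray of short oligonucleotide probes, measures with a probe set annotated to a single symbol, out of 12394 genes with such a probe set. They were chosen by name: Rpl or Rps followed by a number, with Rplp0, Rplp2 and Rpsa, and without the Rps6k kinases and the pseudogenes. The naming rule uses no measured value, but it was set with earlier results of these data known. The brightest of a gene's probe sets over all arrays stands for it. The 48 genes have 100 probe sets of the 22626 tested. A further 102 probe sets are annotated to several symbols that include a ribosomal protein gene, and 30 ribosomal protein genes, among them Rpl5, Rpl3 and Rplp1, lie only on those and were not analysed here. For 10 of the 48 genes (Rpl12, Rpl13a, Rpl14, Rpl27a, Rpl37, Rpl39, Rps2, Rps25, Rps27 and Rps6) such a shared probe set was brighter than the single-symbol one, and their values describe the single-symbol one alone.

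The ribosome is the RNA and protein machine that translates mRNA, and its cytosolic form is built from a small and a large subunit. The proteins of both subunits are encoded by genes named Rps and Rpl, whose mRNAs are abundant in dividing cells and in vertebrates begin with a stretch of pyrimidines, the TOP motif, through which the TOR kinase pathway controls their translation. In blood formation these genes are known from Diamond-Blackfan anemia, in which mutation of one copy of a ribosomal protein gene impairs red cell production.

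RNA came from GFP+ Sca-1+ Lin- bone marrow cells, a fraction that holds primitive blood cells, sorted 24 h after retroviral transduction. Each of 4 groups held 3 arrays: ND13, a fusion of NUP98 with HOXD13; NA10, a fusion of NUP98 with HOXA10; ND13(N51S), the ND13 fusion with a homeodomain mutation that abolishes DNA binding; and the GFP control, the empty MIG vector. All groups shared their background: F1 mice from C57Bl/6Ly-Pep3b and C3H/HeJ, more than 12 weeks of age, fluorouracil at 150 mg/kg 4 days before marrow was taken, 48 h of culture with IL-3, IL-6 and stem cell factor, and 2 days on irradiated GP+E86 cells, a mouse fibroblast line that makes the virus. The fusions were expressed from a viral promoter in a mixture of transduced cells, and the labels tie no array to a single animal. RNA was pooled over cells, so that more cells of a type and more RNA per cell cannot be told apart.

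The values were MAS5 signals, a brightness per probe set on a linear scale. The array of ND13(N51S) replicate 2 stood apart: its 3'-to-5' signal ratio was 48.9 for Gapdh and 9.09 for actin, against 1.90 to 2.71 and 1.72 to 2.38 on the other arrays. For GFP control replicate 1, the deposited record names GFP- cells and, beside the vector, the ND13(N51S) construct. Which cells this array holds cannot be settled here. It may not be an empty-vector sample, and it was used as labelled. Of the progenitor markers, 8 of 8 measured (among them Kit, Cd34 and Flt3) lay above background on all arrays, background being the 95th percentile over the array's 27 control probe sets for bacterial genes; Ly6a, the gene of Sca-1, was not on a single-symbol probe set. Of the T cell markers, 0 of 7 lay above background on all arrays, of the B cell markers 1 of 6, of the erythroid markers 2 of 5, of the neutrophil markers 8 of 9 and of the macrophage markers 6 of 7.

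To show the start of these genes, 30-base windows from 10 bases before the annotated RefSeq start (GRCm38.p6) are printed for 8 of them, all 5′ to 3′ on the strand of the gene. Capitals mark a C at the start base followed by an unbroken run of at least 4 pyrimidines, the form of a TOP motif, and windows in lower case have no such run at that base. The window of Rpl35 lies at chr2:39005112-39005141 (minus strand), Rpl38 at chr11:114668570-114668599 (plus), Rplp2 at chr7:141447641-141447670 (plus), Rps6 at chr4:86857348-86857377 (minus), Rps10 at chr17:27635225-27635254 (minus) and Rps27 at chr3:90213629-90213658 (minus). Rpl12, at chr2:32961702-32961731 (plus), and Rpl39l, at chr16:10170218-10170247 (plus), are the genes whose signals are described most closely below.
Rpl35: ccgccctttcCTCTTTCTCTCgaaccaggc
Rpl38: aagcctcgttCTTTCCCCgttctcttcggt
Rplp2: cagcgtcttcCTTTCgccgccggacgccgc
Rps6: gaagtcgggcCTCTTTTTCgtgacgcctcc
Rps10: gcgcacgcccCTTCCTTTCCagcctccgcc
Rps27: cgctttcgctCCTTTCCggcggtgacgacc
Rpl12: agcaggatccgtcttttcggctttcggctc
Rpl39l: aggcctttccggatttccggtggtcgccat

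Promoters were found for 42 of the 48 genes, with 50 starts. Such a pyrimidine run stood at 8 of the 50 starts (16%), against 2.51% of the 32851 starts of all genes. Beside the 6 shown these were Rpl14 and Rps18. Only runs at the annotated start base were counted, so that a run some bases away was missed. The letters CCGGAAG, a form of the site of ETS factors, occurred on either strand between 250 bases before and 50 bases after the start in 42% of the ribosomal protein starts and in 8.86% of all starts, Rpl39l among them. The letters AAGATGGCG, a form of the YY1 site, occurred in 6% and 1.4%. TATAAA, the TATA box, occurred in 12% and 13.6%. CCGGAAG and AAGATGGCG share the letters AAG, so that 1 stretch can hold both, and a match is a description of the sequence and not a bound site.

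The ribosomal protein genes, each read on its brightest probe set, were bright and varied little within groups. The geometric mean signal was 1000 or more for 41 of the 48 genes, and the highest single signal was 23716, for Rpl41, which encodes the smallest protein of the large subunit, in ND13 replicate 3. The signals of different probe sets are not a measure of relative RNA amount, and so the genes are compared here across arrays and not with each other. Within groups, the median SD of the 48 genes was 0.20 on the log2 scale, against 0.51 over all probe sets tested. Brighter probe sets had lower SDs: at a geometric mean of at least 1000 its median was 0.19 for 41 of these genes and 0.27 for all 3588 probe sets, and at 10000 or more it was 0.15 for 23 of them and 0.16 for all 142. Of the 48 genes 21 were among the 100 brightest probe sets, which are 0.442% of all. Taking the brightest probe set of each gene raises such counts, and no such choice was made for all probe sets. Whether such bright probe sets respond less to a change in RNA was not tested. The lowest within-group SDs were those of Rpl10a, Rps4x and Rpl7, at 0.08, 0.09 and 0.10, and the widest those of Rpl3l, Rpl27a and Rpl39l, at 1.38, 1.12 and 0.77. For 21 genes the highest of the 12 signals was less than 1.5 times the lowest, and for 7 it was at least 3 times. Rpl3l, the paralogue of Rpl3 known from muscle, was above background on some arrays only, and Rps4l, an autosomal relative of Rps4x in mouse, on 0 of 12.

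**Figure D1:**
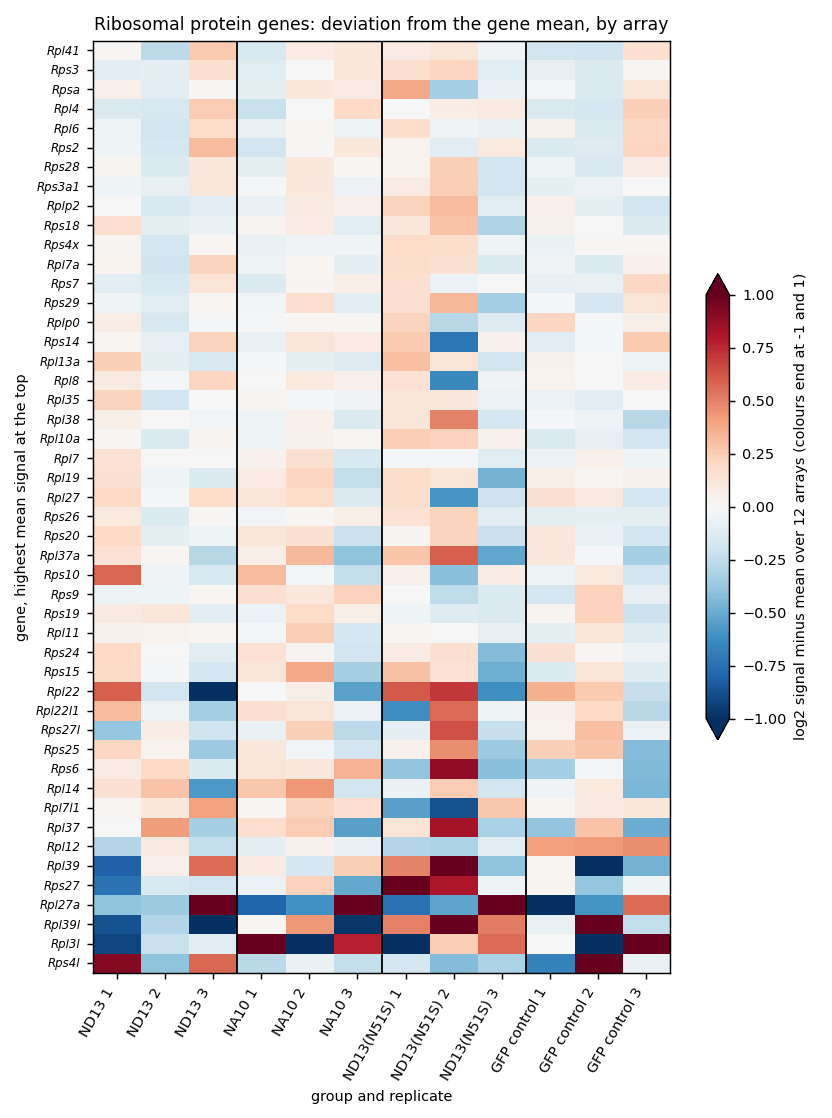
Deviation of each array from the gene's mean over 12 arrays, on the log2 scale, for the 48 ribosomal protein genes (rows, highest mean signal at the top) and the 12 arrays (columns, by group); colours end at -1 and 1. Most cells of the upper rows are pale, and the widest departures lie in the dim genes at the bottom and in the column of ND13(N51S) replicate 2.

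Together the 48 genes made up 2.90 ± 0.139% of the summed signal of all probe sets in ND13, 2.91 ± 0.108% in NA10, 2.95 ± 0.242% in ND13(N51S) and 2.86 ± 0.0209% in the GFP control (mean ± SD, n = 3 arrays each). The group means differed by less than the spread within ND13(N51S).

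The first question was whether the leukemogenic fusions changed the ribosomal protein genes relative to the empty vector. With limma over all probe sets, 0 of the 48 genes were called at an adjusted p under 0.05 and a 1.5-fold change in ND13 against the GFP control (background 0.0884% of probe sets), and 0 in NA10 against the GFP control (0.0133%). Without adjustment, at p under 0.05, 2 genes were lower in ND13 (Rpl12 and Rpl39l, 1.92% of probe sets) and 0 were higher (3.81%). In NA10 1 gene was lower (Rpl12, 1.66%) and 0 were higher (2.75%). The methods' t-test on the same values gave 1 gene for ND13 and 3 for NA10 before adjustment, 0 and 0 with the 1.5-fold rule added (2.62% and 2.31% of probe sets), and 0 after adjustment. For this test the share of all probe sets before adjustment was not counted in any comparison. All 3 ND13 arrays lay below all 3 GFP control arrays for 2 genes (Rpl12 and Rpl39l, 5.37% of probe sets) and above them for 0 (6.84%). All 3 NA10 arrays lay above the GFP control for 3 genes (Rpl10a, Rps26 and Rps6, 5.6%) and below it for 1 (Rpl12, 5.18%). The median log2 change of the 48 genes was 0.04 in ND13 and 0.05 in NA10, against 0.00 and -0.01 over all probe sets, and with each array centred on its median the ND13 value turned to -0.04 and that of all probe sets to -0.07. A change under 1.5-fold was measured for 46 genes in ND13 and 48 in NA10, where 75.1% and 76.2% of all probe sets stayed within that range. Bright probe sets of any gene varied less, and the share among probe sets of like brightness was not counted. These counts therefore cannot be read as a steadiness particular to ribosomal protein genes. The median SE of a gene's log2 change was 0.16 in each comparison of 2 groups.

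The mutant ND13(N51S) was set against the GFP control in the same way. Of the 48 genes, 0 were called (background 0%). Without adjustment, 3 were higher (Rpl10a, Rpl39 and Rps27, 4.88% of probe sets) and 1 was lower (Rpl12, 2.78%), and the methods' t-test gave 2 before adjustment, 1 with the 1.5-fold rule added (Rpl12, 2.88%) and 0 after adjustment. The arrays of ND13(N51S) lay wholly above the GFP control for 1 gene (Rpl10a, 8.5%) and wholly below it for 1 (Rpl12, 3.45%). The median log2 change was 0.06, against 0.07 over all probe sets, and it turned to -0.02 with quantile normalization and to -0.05 with median centring, where the median of all probe sets was 0.01 and -0.04. By value, 29 genes were higher in ND13, 33 in NA10 and 32 in ND13(N51S), where 50%, 48.7% and 56.2% of all probe sets were. These 3 comparisons share the GFP control arrays.

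**Figure D2:**
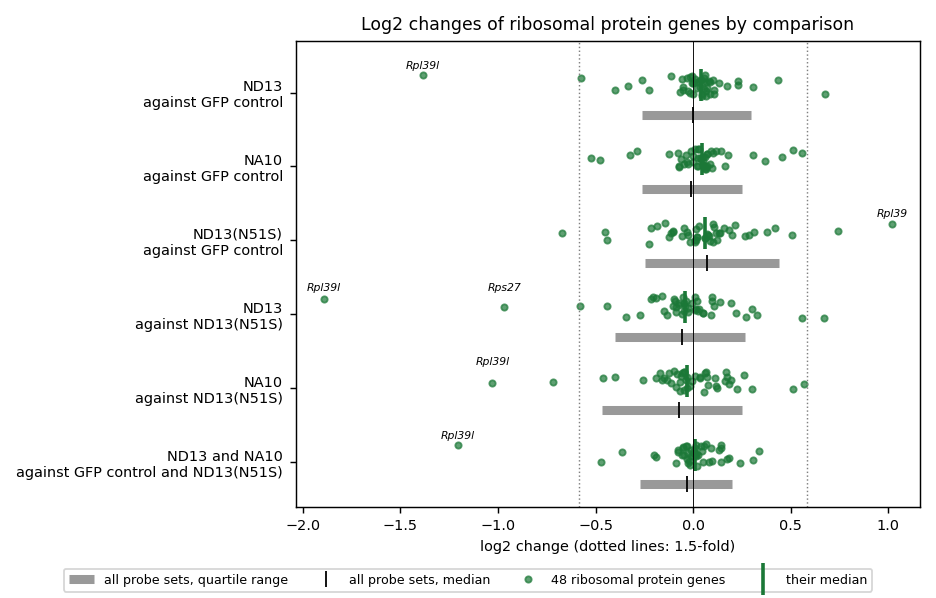
Log2 change of each of the 48 ribosomal protein genes (green points, with their median as a green line) in 6 comparisons, above the quartile range and the median of all probe sets (grey bar and black line); dotted lines mark 1.5-fold. The green medians lie between -0.04 and 0.06, and the genes named in the plot are those with a change beyond 0.9.

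Against ND13(N51S), 0 genes were called in ND13 (background 0.0133%) and 0 in NA10 (0.00884%). The ND13 comparison asks what depends on the intact homeodomain, as the paper presumes that the mutant does not bind DNA. NA10 also differs from the mutant in its HOX partner. Without adjustment, 1 gene was higher in ND13 (Rpl7l1, 3.53%) and 2 were lower (Rpl39l and Rps27, 4.34%). In NA10 1 was higher (Rps9, 3.28%) and 1 was lower (Rps27, 5.31%). The methods' t-test gave 1 gene in either comparison before adjustment, 1 in ND13 (Rpl39l, 2.98%) and 0 in NA10 (3.88%) with the 1.5-fold rule added, and 0 after adjustment. The ND13 arrays lay wholly above ND13(N51S) for 1 gene (Rpl7, 4.28%) and wholly below it for 3 (Rpl10a, Rpl39l and Rps27, 8.04%). The NA10 arrays lay wholly above ND13(N51S) for 2 (Rpl12 and Rps9, 4.3%) and wholly below it for 1 (Rpl39l, 9.4%). By value, 20 genes were higher in ND13 (45% of probe sets) and 21 in NA10 (43.5%). The median log2 change was -0.04 in ND13 and -0.03 in NA10, against -0.06 and -0.08 over all probe sets, and with quantile normalization it turned to 0.02 and 0.05, against -0.02 and -0.01. With ND13 and NA10 together against the GFP control and ND13(N51S) together, 0 genes were called (0.0354%), 0 were higher (3.79%) and 1 was lower (Rpl39l, 4.19%) without adjustment, and the methods' t-test gave 1 before adjustment (Rpl39l, also with the 1.5-fold rule, 3.82%) and 0 after it. By value 26 genes were higher (46% of probe sets), for 0 genes did the arrays not overlap (0.371% of probe sets wholly higher and 0.234% wholly lower), and the median log2 change was 0.01, against -0.03 over all probe sets.

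With the replicate number as a block, which the numbering of the arrays allows, 0 of the 48 genes were called in ND13 (0.296% of probe sets), NA10 (0.0398%) or ND13(N51S) (0.0265%) against the GFP control and 0 in NA10 against ND13(N51S) (0.0442%). In the other 2 comparisons 1 gene was called, Rpl39l, which is described further on.

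Rpl12 encodes a protein at the base of the stalk on which the elongation factors act. Its signal was 435, 566 and 450.4 on the ND13 arrays, 497, 547 and 505 in NA10 and 434, 428 and 493 in ND13(N51S), against 705, 713 and 733 in the GFP control. These values are those of its single-symbol probe set, which was dimmer than a shared one. All 9 arrays with a fusion lay below the 3 GFP control arrays, which stood close together. The share of all probe sets that part in this way was not counted, and a dimmer probe set of Rps9 did so as well. The log2 change was -0.58 ± 0.19 in ND13, -0.48 ± 0.19 in NA10 and -0.67 ± 0.19 in ND13(N51S) (limma's SE), with adjusted p = 0.555, 1.0 and 0.445, so that no call was made. Without GFP control replicate 1, the changes were -0.59, -0.49 and -0.68. The summed signal of 6 megakaryocyte markers, 4 of which lay above background on all arrays, was higher in the fusion groups by value: it was 5442 to 6920.0 in ND13, 6605 to 7109 in NA10 and 5420.3 to 8863 in ND13(N51S), against 2862 to 4853 in the GFP control, with no overlap. By value 6, 5 and 6 of these 6 markers were higher in ND13, NA10 and ND13(N51S) (50%, 48.7% and 56.2% of all probe sets), and 0 were called. Other lists parted from the GFP control in some groups. The sum of the progenitor markers was 14478 to 17444.5 in NA10, against 12050.3 to 13474. That of the B cell markers was 289.8 to 344 in ND13 and 222 to 322 in NA10, against 352 to 395. Without adjustment 4, 3 and 3 of 7 macrophage markers were higher in ND13, NA10 and ND13(N51S) (3.81%, 2.75% and 4.88%). The part of these cell types in the values of Rpl12 was not tested.

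The other stalk proteins measured stayed near the GFP control. Rplp0, the scaffold of the stalk, averaged 13324 ± 1037 in ND13, 13634 ± 129.6 in NA10 and 13185 ± 2416 in ND13(N51S), against 14425 ± 1203 in the GFP control (SD, n = 3 each). Rplp2, an acidic protein at its tip, averaged 14388 ± 811 in ND13, 15483 ± 834 in NA10 and 16858 ± 2531 in ND13(N51S), against 14467 ± 1206 in the GFP control. Their log2 changes against the GFP control ran from -0.14 to 0.21, and none was called.

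Rpl39l is a paralogue of Rpl39, a protein of the tunnel through which the new chain leaves the ribosome, and is known from testis in mouse. Its signal was 117, 174 and 55.7 in ND13, 217, 289 and 109 in NA10 and 304, 625 and 306 in ND13(N51S), against 204, 552 and 181 in the GFP control. Every ND13 array lay below every ND13(N51S) and GFP control array, NA10 overlapped with the GFP control but not with ND13(N51S), and the signal of ND13 replicate 3 was below the background of its array, 69.8. In each group replicate 2 was the highest. The log2 change was -1.39 ± 0.53 in ND13 against the GFP control, -1.89 ± 0.53 in ND13 against ND13(N51S) and -1.21 ± 0.37 in both active fusions against both controls, with adjusted p = 0.740, 0.364 and 0.419.

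With the replicate number as a block the last 2 of these were called, at -1.89 ± 0.27 (adjusted p = 0.0401, background 0.0796% of probe sets) and -1.21 ± 0.19 (adjusted p = 0.0451, 0.102%), while ND13 against the GFP control, at -1.39 ± 0.27, had an adjusted p of 0.0665. With both the block and 1 array left out, the call in ND13 against ND13(N51S) was lost without any of the ND13 arrays, any of the NA10 arrays or GFP control replicate 3, at adjusted p = 0.0610 to 0.195. The call for both active fusions was lost without any of the ND13 or NA10 arrays, GFP control replicate 2 or 3, or ND13(N51S) replicate 3, at adjusted p of 0.0519 to 0.170. The call in ND13 against ND13(N51S) was kept without ND13(N51S) replicate 2 (adjusted p = 0.0314) and without both arrays in doubt (0.0256). Without ND13(N51S) replicate 2 the block also gave a call in ND13 against the GFP control (adjusted p = 0.0310). The summed signal of 5 mast cell and basophil markers, 4 of which lay above background on all arrays, was 2711 to 3012 in ND13, 2602 to 4561 in NA10, 4274 to 7269 in ND13(N51S) and 2169 to 3536 in the GFP control, and that of 8 fibroblast markers, 3 of which lay above background on all arrays, was 695 to 1336 in ND13, 928 to 1396 in NA10, 1357 to 2195 in ND13(N51S) and 1070.1 to 1381 in the GFP control. That of 5 erythroid markers, 2 of which lay above background on all arrays, was 309 to 399.5 in ND13, 198 to 412 in NA10, 497 to 558 in ND13(N51S) and 347 to 427 in the GFP control. The part of these cell types in the values of Rpl39l and Rps27 was not tested.

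**Figure D3:**
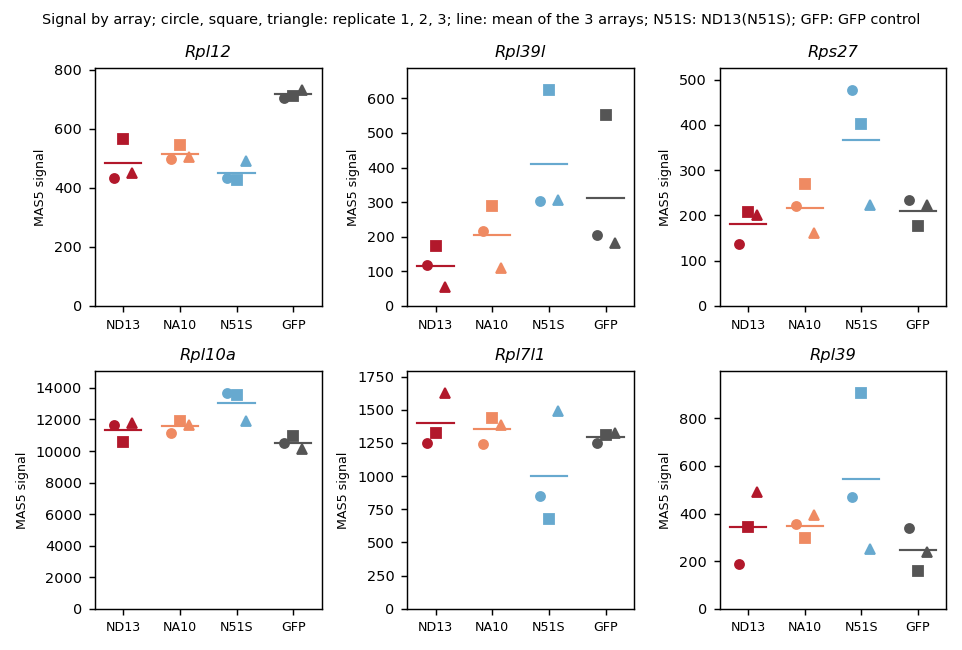
MAS5 signal on each array, on linear axes from 0, for 6 ribosomal protein genes in ND13, NA10, ND13(N51S) and the GFP control; circles, squares and triangles are replicates 1, 2 and 3 and lines are means of 3 arrays. For Rpl12 the 3 GFP control arrays (705 to 733) lie above all others, and for Rpl39l the 3 ND13 arrays (55.7 to 174) lie below those of ND13(N51S) and the GFP control.

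The paralogue pairs gave a mixed picture. Rpl39 and Rps27 were, like Rpl12, read on a single-symbol probe set dimmer than a shared one. Rpl39 itself had signals of 190.0, 345 and 491 in ND13, 355, 296 and 393 in NA10 and 471, 908 and 252 in ND13(N51S), against 338, 160.2 and 239 in the GFP control, and all groups overlapped. Its log2 change in ND13(N51S) against the GFP control was 1.02 ± 0.45 (adjusted p = 0.640), 0.55 without ND13(N51S) replicate 2, the array with the highest signal, 1.28 without GFP control replicate 1 and 0.82 without both. Rps27, a zinc finger protein of the small subunit and a Diamond-Blackfan anemia gene, had signals of 138, 206 and 202 in ND13, 221, 270.2 and 161 in NA10 and 478, 402 and 223 in ND13(N51S), against 234, 176 and 223 in the GFP control. Replicates 1 and 2 of ND13(N51S) were the highest, and replicate 3 lay among the other groups. The log2 change was -0.97 ± 0.32 in ND13 and -0.72 ± 0.32 in NA10 against ND13(N51S), and 0.74 ± 0.32 in ND13(N51S) against the GFP control (adjusted p = 0.497, 0.561 and 0.637). Without GFP control replicate 1 the last of these was 0.82.

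Its paralogue Rps27l, which p53 induces in human cells, had a log2 change of -0.27 ± 0.23 in ND13 against ND13(N51S) and of 0.01 ± 0.23 in ND13(N51S) against the GFP control. Rpl7l1, a relative of Rpl7 that acts in ribosome assembly, had signals of 1251, 1326 and 1630.2 in ND13, against 848, 676 and 1488 in ND13(N51S), where the third array overlapped with ND13. The log2 change was 0.55 ± 0.25 (adjusted p = 0.623), and 0.31 without ND13(N51S) replicate 2. Rpl7 had a log2 change of 0.10 ± 0.12 in the same comparison. Rpl22, an RNA-binding protein needed for T cell development in mice, had a log2 change of -0.33 ± 0.39 in ND13 against the GFP control. Its second bright probe set had 0.22. Rpl22l1, the paralogue of Rpl22, had -0.02 ± 0.26.

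Of the proteins at landmarks of the subunits, Rpl10a, on the stalk through which used tRNA leaves, had signals of 11636, 10542 and 11755 in ND13, 11156, 11934 and 11651 in NA10 and 13707, 13557 and 11886 in ND13(N51S), against 10484, 10926 and 10117 in the GFP control. The ND13(N51S) and the NA10 arrays all lay above those of the GFP control, while ND13 overlapped with it. The log2 change in ND13(N51S) was 0.31 ± 0.11 (adjusted p = 0.576), below 1.5-fold. Rps9, a small subunit protein, had signals of 8895, 8618 and 9361 in NA10, against 7970.3, 6671 and 7240.4 in ND13(N51S), with no overlap and a log2 change of 0.30 ± 0.13 (adjusted p = 0.568). A dimmer probe set of Rps9, at a geometric mean of 439, read lower on all fusion arrays than in the GFP control. It read 370, 345 and 426 in ND13 and 431, 410 and 517 in NA10. In ND13(N51S) it read 364, 192 and 576, against 613, 611 and 693 in the GFP control. Its log2 change in NA10 against ND13(N51S) was 0.39, and it was not called. Rps6, the substrate of the S6 kinases, lay higher on all 3 NA10 arrays (1475, 1454 and 1719.7) than in the GFP control (1069.8, 1343 and 998), at 0.45 ± 0.30 on the log2 scale, and so did Rps26, at 0.12 ± 0.12. The probe set used for Rps6 was dimmer than a shared one.

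Rps3, which lines the entry of the mRNA channel, Rpsa, a small subunit protein also known as the laminin receptor, and Rpl4, a protein of the exit tunnel, had log2 changes of 0.16 or less against the GFP control in ND13, NA10 and ND13(N51S). Rpl38, which in mouse embryos is needed for the translation of a group of Hox mRNAs, averaged 12216 ± 376 in ND13, 11742 ± 791 in NA10 and 13644 ± 3202 in ND13(N51S), against 11186 ± 1042 in the GFP control. Its log2 changes were 0.13, 0.07 and 0.26, and its highest signal, 17066, was that of ND13(N51S) replicate 2.

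Of 19 Diamond-Blackfan anemia genes, 11 were measured on single-symbol probe sets. In the comparisons with the GFP control 0 of them were called, and 7 of 11 were higher by value in ND13 (50% of all probe sets), 9 in NA10 (48.7%) and 7 in ND13(N51S) (56.2%). Rps19, the gene most often mutated in the disease, averaged 7973 ± 669 in ND13, 8129 ± 699 in NA10 and 7241 ± 284 in ND13(N51S), against 7903 ± 1209 in the GFP control. Rpl11, whose protein can bind Mdm2, averaged 7411 ± 57.1 in ND13, 7389 ± 1113 in NA10 and 7156 ± 283 in ND13(N51S), against 7108 ± 719 in the GFP control. The groups overlapped for both genes.

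On ND13(N51S) replicate 2, the array with the raised 3'-to-5' ratios, 18 of the 48 genes had the highest and 9 the lowest of their 12 signals, and 11 genes lay more than 1.5-fold from their own mean. ND13(N51S) replicate 3, whose ratios were not raised, had the highest signal for 0 genes and the lowest for 10. The shares of all probe sets were not counted, so that these counts cannot be read as particular to ribosomal protein genes. Rpl8, a large subunit protein at the peptidyl transferase centre, had a signal of 7884 there, against 13612 and 12009.7 on the other ND13(N51S) arrays, and Rpl27, another large subunit protein, had 6649, against 11211 and 8609. Rps29, a zinc finger protein of the small subunit, had 17781, against 15797 and 11173. The probe sets of a single gene parted on this array: for Rps18, in the head of the small subunit, 2 probe sets read 18378 and 15513 and the third 5859, where the third read 10035 to 14580.4 on all others, and for Rpl37a, a zinc finger protein, the chosen probe set read 13160.0, its highest value, while a second read 2049, its lowest, next to 2132 on ND13(N51S) replicate 3.

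The replicate number also separated some genes. In a fit with the group and the number, chosen after the values had been seen, replicate 3 was set against replicates 1 and 2 over all groups. Of the 48 genes 1 was called higher in replicate 3 (2.15% of probe sets) and 3 were called lower (2.74%). Rpl27a, a large subunit protein, rose: its signals were 757, 616, 576 and 336 in replicate 3 of ND13, NA10, ND13(N51S) and the GFP control, against 112 to 178 on the 8 other arrays, a log2 change of 1.89 ± 0.17 (adjusted p = 0.000184). Rpl22, Rpl37 and Rpl39l fell, by 0.90, 0.64 and 0.99 (adjusted p = 0.00518, 0.0104 and 0.0124). Shared probe sets of Rpl27a and Rpl37, not used here, were brighter than those read. The replicate 3 arrays lay wholly above the others for 3 genes (Rpl27a, Rpl4 and Rps2, 3.09% of probe sets) and wholly below them for 5 (Rpl14, Rpl22, Rpl37a, Rps24 and Rps25, 2.86%). By value 32 of the 48 genes were lower (48.2% of probe sets), and the median was -0.08, against 0.02 over all probe sets.

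For Rpl22 the second bright probe set ran the other way, at 1780.1 in ND13, 2145 in NA10, 1593 in ND13(N51S) and 1564 in the GFP control in replicate 3, against 952 to 1626 on the other arrays, with r = -0.824 between both probe sets over 12 arrays of 4 groups, a description. With the mean of all probe sets of a gene, Rpl22 had a log2 change of -0.20 (adjusted p = 0.308) and was not called. For Rpl27a, whose other single-symbol probe set has a geometric mean of 9.06, below the background of every array, that mean says nothing of the gene. Of 19 ribosomal protein genes with more than 1 probe set at a geometric mean of 1000 or more, all of a gene's bright probe sets pointed one way for 8 genes in ND13 against the GFP control, for 7 in NA10, for 9 in ND13(N51S) and for 10 in replicate 3 against replicates 1 and 2.

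**Figure D4:**
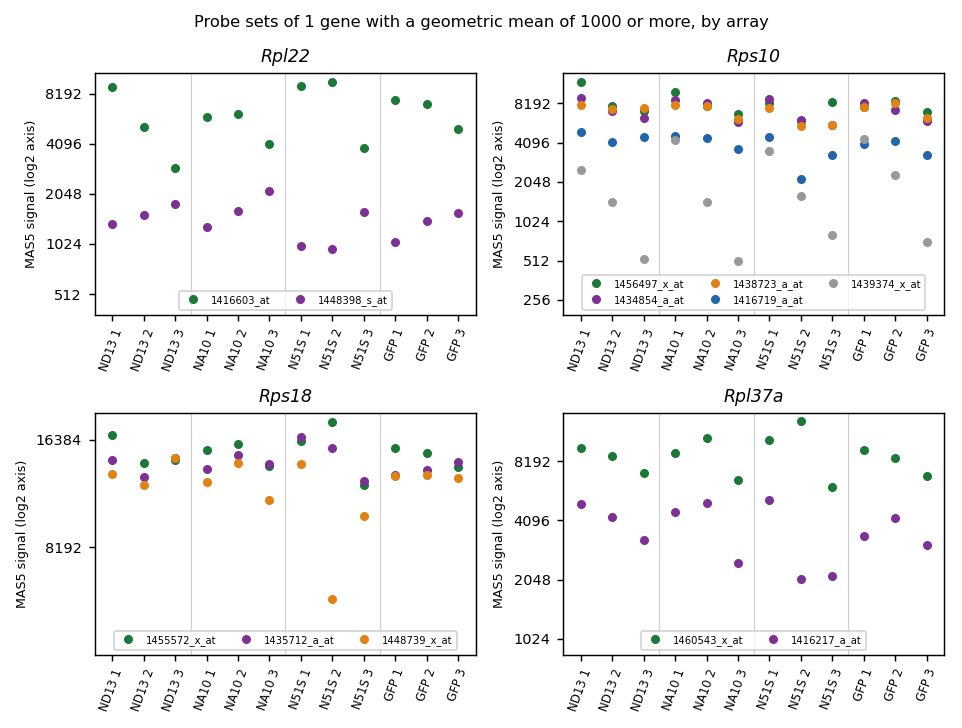
MAS5 signal (log2 axis) of the probe sets of Rpl22, Rps10, Rps18 and Rpl37a with a geometric mean of at least 1000, on each of the 12 arrays in the order ND13, NA10, ND13(N51S) and GFP control. Both probe sets of Rpl22 run in opposite directions in replicate 3, and 1 of 3 for Rps18 and 1 of 2 for Rpl37a drop to 5859 and 2049 on ND13(N51S) replicate 2.

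The genes that work with the ribosome, taken from lists by function, had 0 calls with limma in all 6 comparisons. Of 33 initiation factors 27 were measured. Against the GFP control 7 were higher by value in ND13 (50% of all probe sets), 9 in NA10 (48.7%) and 9 in ND13(N51S) (56.2%). Their medians were -0.11, -0.09 and -0.08, against 0.00, -0.01 and 0.07 over all probe sets. Without adjustment 1 was lower in ND13 (1.92% of probe sets), 0 in NA10 (1.66%) and 1 in ND13(N51S) (2.78%). Of 10 elongation and termination factors 9 were measured, with 3 higher by value in ND13, 2 in NA10 and 1 in ND13(N51S). Their medians were -0.16 in ND13, -0.09 in NA10 and -0.15 in ND13(N51S), and 1, 1 and 0 were lower without adjustment. The values over all probe sets are those just given. Eef1e1, a factor bound to the tRNA synthetase complex, averaged 2725 ± 413 in ND13 and 2807 ± 150.0 in NA10, against 3715 ± 790 in ND13(N51S) and 3754 ± 255 in the GFP control, a log2 change of -0.43 ± 0.12 in both active fusions against both controls (adjusted p = 0.391).

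Of 15 genes of the TOR and S6 kinase pathway 12 were measured, and without adjustment 2 were higher in ND13 (3.53% of all probe sets) and 2 in NA10 (3.28%) against ND13(N51S). In ND13(N51S) against the GFP control 1 was higher (4.88%) and 1 was lower (2.78%), and in both active fusions against both controls 1 was higher (3.79%) and 1 was lower (4.19%). Of 11 further partners of the ribosome 9 were measured, with 0 at an unadjusted p under 0.05. Pdpk1, the kinase that activates Akt and the S6 kinases, averaged 646 ± 79 in ND13 and 762 ± 174 in NA10, against 266 ± 206 in ND13(N51S), at log2 changes of 1.77 and 1.98 (adjusted p = 0.497 and 0.361), and 659 ± 151 in the GFP control. The SD in ND13(N51S) is large beside its mean, and ND13(N51S) replicate 2, an array in doubt, belongs to that group. The changes of Pdpk1 without that array were not read. Larp1, which binds TOP mRNAs, averaged 2012 ± 205 in ND13, 2086 ± 175 in NA10 and 2446 ± 229 in ND13(N51S), against 2448 ± 147 in the GFP control. For the mitochondrial ribosomal proteins 74 genes were measured, which encode the separate ribosome of that organelle. Of these 9 were higher by value in ND13 (50% of all probe sets), 14 in NA10 (48.7%) and 17 in ND13(N51S) (56.2%) against the GFP control. Their medians were -0.17, -0.14 and -0.14, against 0.00, -0.01 and 0.07 over all probe sets. Without adjustment 0 were lower in ND13 (1.92%), 2 in NA10 (1.66%) and 6 in ND13(N51S) (2.78%). With the cytosolic genes it was 29, 33 and 32 of 48 that were higher by value.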

How the data were processed

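The authors hybridised RNA of 12 samples to MOE430A arrays and deposited MAS5 signal intensities of 22690 probe sets, scaled to an equal mean after trimming 2% at each end. Their paper used GC-RMA values, which were not used here. After a floor of 0.01 their log2 was taken, and 64 control probe sets were left out. All other 22626 were fitted with limma 3.58.1 in R 4.3.3 (lmFit; eBayes, trend and robust) across the 4 groups together (mean degrees of freedom 13.4), and p-values were adjusted over the whole table by Benjamini-Hochberg. A call needed an adjusted p under 0.05 and a 1.5-fold change; precision is limited by having 3 arrays a group. The test was checked on simulated data with large added changes and noise independent between arrays. Small changes and shared deviations of same-numbered arrays were not simulated. "Higher by value" counts log2 changes above 0.

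The members, gene lists and named genes were chosen with earlier results of these data known. Named are, for each comparison, up to 4 genes each way at unadjusted p under 0.05, those with extreme signals and SDs, at most 4 genes of each pathway list, and the lists of stalk, anemia, paralogue and landmark proteins; further genes were chosen after their values were seen. Same-numbered arrays deviated together (correlations of 0.106 to 0.596 over 11313 probe sets above the median mean, against -0.422 to 0.107 for different numbers), and the number was taken to pair the arrays. Over all 22626 probe sets, on which the block was fitted, the correlations were weaker, at 0.0308 to 0.156 against -0.105 to 0.0250. The deviations are from group means, so that the values for same and different numbers are not independent. Over the 48 genes alone these were -0.226 to 0.856 and -0.881 to 0.587.

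The alternatives tried were leaving out dim probe sets, a pseudocount of 41.5, quantile normalization, median centring, fits of the compared groups only, the methods' t-test, which the study words as Student's in one place and as a Welch-type test in another (run with unequal variances), the mean of a gene's probe sets, the replicate block, and each array left out. Student's t-test with equal variances, leaving out both arrays in doubt, and the block with arrays left out, were added after seeing the data. Plots used Python 3.11.15 and matplotlib 3.10.9.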

Additional observations from a re-analysis of the deposited data

How the results depend on the processing

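No called count of the 6 comparisons between groups changed in any alternative except with the replicate block, which called 1 ribosomal protein gene (Rpl39l) in ND13 against ND13(N51S) and 1 (Rpl39l) in both active fusions against both controls (the block changed no other call over all 12 arrays). With ND13(N51S) replicate 2, or both arrays in doubt, left out, the block also called Rpl39l in ND13 against the GFP control (adjusted p = 0.0310 and 0.0442). Counts at unadjusted p under 0.05 moved more often. The share of all probe sets was not counted under these settings, so that the counts cannot be read as a surplus. With the block they were 7 in ND13(N51S) against the GFP control, 4 in NA10 against ND13(N51S) and 3 in both active fusions against both controls. Quantile normalization gave 2 in the last of these. With only the groups compared in the fit, NA10 against the GFP control had 2, ND13(N51S) against the GFP control 1 and NA10 against ND13(N51S) 1. Student's t-test, with equal variances, gave 1 in ND13, 4 in NA10 and 2 in ND13(N51S) against the GFP control, and 1 in ND13 and 1 in NA10 against ND13(N51S). The methods' t-test with unequal variances gave 1 in ND13, 3 in NA10 and 2 in ND13(N51S) against the GFP control, and 1 in ND13 and 1 in NA10 against ND13(N51S). The mean of all probe sets of a gene gave 2 in NA10 and 7 in ND13(N51S) against the GFP control and 1 in NA10 against ND13(N51S). Without both arrays in doubt the counts were 1 in ND13(N51S) against the GFP control, 1 in NA10 against ND13(N51S) and 2 in both active fusions against both controls.

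With each array left out in turn, the unadjusted counts ran from 1 to 2 in ND13, 0 to 2 in NA10 and 2 to 9 in ND13(N51S) against the GFP control, from 2 to 9 in ND13 and 0 to 4 in NA10 against ND13(N51S), and from 1 to 4 in both active fusions against both controls. The highest values, 9, 9, 4 and 4 in the last 4 of these, were those without ND13(N51S) replicate 3. For these fits, too, the share of all probe sets was not counted, and the counts cannot be read as a surplus. The median log2 change of ND13(N51S) against the GFP control was 0.0043 to 0.18 in these fits, 0.18 without ND13(N51S) replicate 3, and -0.052 with median centring, which lowered the array-wide median by more than 0.1. The cause was not tested for any of these. Of the genes followed through every alternative (Rpl12, Rpl39l, Rps27, Rpl39, Rpl10a, Rpl7l1 and Rps9, and for replicate 3 also Rpl22, Rpl27a and Rpl37), none reversed in the comparisons they were named for. Changes near 0 did turn with the scaling: against the GFP control, 16 of the 48 in ND13 (among them Rpl11, Rpl4, Rps19 and Rps3) and 16 in ND13(N51S) (among them Rps27l and Rpsa) with median centring, and 4 and 10 with quantile normalization. None of the changes that turned, in any of the 6 comparisons, was larger than 0.14 in size on the log2 scale. In the comparison of replicates, Rpl39l lost its call without ND13 replicate 3 (adjusted p = 0.0710) or NA10 replicate 3 (0.0731), and Rpl37 without NA10 replicate 1 (log2 change -0.58, below 1.5-fold), NA10 replicate 3 (adjusted p = 0.0664) or ND13(N51S) replicate 3 (0.0502). Dim genes such as Rpl3l and Rps4l, near or below background, allow no statement on change.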
